A study of Mus musculus with 2 samples.

Results

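Established transcriptional targets of p53 were compared between 2 mouse epithelial cell lines, Mle29c and Mlesico, each measured on 1 oligonucleotide expression array. The members were p53 itself (Trp53) and Mdm2, Cdkn1a, Trp53inp1, Plk2, Sesn1, Sesn2, Phlda3, Zmat3 and Aen, taken as every probe set whose only gene symbol in the platform annotation is one of these names. A probe set is a group of short probes for 1 transcript region. The rule found 21 of the 45101 probe sets of the array, for 9 of 18193 genes. In the annotation used here no probe set is paired with Trp53, so its transcript was not analysed here.

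The Mle29c sample and the Mlesico sample were total RNA of cultured cells for which the labels give no treatment, and both lines were grown in the same serum-containing medium. The title of the series names miR-29c, lung fibrosis and the renewal and apoptosis of epithelial cells. What was done to miR-29c in the Mle29c line is not stated in the labels. How either line was made immortal, whether it is 1 clone and whether its p53 is functional are not given in the sources used here. Since each line has 1 array and so no replicate, the differences were not tested, and 2-fold serves as a mark of size alone.

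The protein p53 is a transcription factor that is held at a low level in unstressed cells, because Mdm2, itself a product of a p53 target gene, marks it for degradation. DNA damage and other stresses free p53, which then binds pairs of short repeats near its target genes. The targets halt the cell cycle, drive apoptosis, restrain growth signalling and, through Mdm2, switch p53 off again. In human cells, miR-29 has been reported to raise p53 by repressing the mRNAs of a PI3 kinase subunit and of Cdc42, and in mouse cells by repressing that of the phosphatase Ppm1d.

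The mature miR-29c-3p is shown because the Mle29c line and the study carry its name, with its seed (bases 2 to 8), the part that pairs with target mRNAs, in capitals. It lies on the plus strand at chr1:195037600-195037621 (RefSeq, build GRCm38.p6), and miR-29a-3p and miR-29b-3p have the same seed.
mmu-miR-29c-3p: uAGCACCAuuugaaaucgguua

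Promoter windows of RefSeq (250 bases before to 50 after a gene's start, build GRCm38.p6) were found for 7 of the 9 measured members, 10 windows in all. They were searched for the p53 half-site, the 10-base consensus repeat to which p53 binds, which reads alike on both strands. A half-site was present in 5 windows, of 4 genes, against 8.36% of all 32851 windows. The 2 Aen windows overlap and hold the same site, and the members were chosen as known p53 targets. Cdkn1a has windows at an upstream and at a downstream start, both on the plus strand. The upstream window holds 2 half-sites, which start 73 and 51 bases before the start, and the second overlaps the word CATGNNNNNNCATG, which marks adjoining half-sites with the same core. That word is in 0.712% of all windows and in 1 of the 10 member windows. Both Cdkn1a windows are printed to show this contrast between the starts of the best-known p53 target, with half-sites and the CATG word in capitals.
Cdkn1a upstream start, chr17:29090729-29091028: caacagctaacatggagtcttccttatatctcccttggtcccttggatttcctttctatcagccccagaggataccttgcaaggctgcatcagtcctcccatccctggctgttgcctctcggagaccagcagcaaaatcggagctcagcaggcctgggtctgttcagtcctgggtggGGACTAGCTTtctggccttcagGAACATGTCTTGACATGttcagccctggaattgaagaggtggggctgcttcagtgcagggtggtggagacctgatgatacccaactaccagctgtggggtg
Cdkn1a downstream start, chr17:29093519-29093818: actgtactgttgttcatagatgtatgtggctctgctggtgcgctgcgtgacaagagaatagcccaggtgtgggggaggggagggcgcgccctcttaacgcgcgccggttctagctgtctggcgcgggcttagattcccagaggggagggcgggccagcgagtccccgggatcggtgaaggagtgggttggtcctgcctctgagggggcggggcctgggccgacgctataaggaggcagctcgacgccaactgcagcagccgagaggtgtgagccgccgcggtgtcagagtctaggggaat

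The remaining half-sites are shown in stretches of 60 bases, again with the half-site in capitals. Each is a lone match rather than a pair, and less exact repeats beside it were not searched. The Mdm2 site starts 186 bases before its start on the minus strand, the Sesn1 site 173 bases before its downstream start on the plus strand, and the Aen site 10 bases after its upstream start, which is 121 bases before its downstream start, also on the plus strand.
Mdm2, chr10:117710910-117710969: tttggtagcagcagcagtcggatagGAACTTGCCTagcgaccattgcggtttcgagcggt
Sesn1, chr10:41887241-41887300: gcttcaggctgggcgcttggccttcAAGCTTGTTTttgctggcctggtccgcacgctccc
Aen, chr7:78895912-78895971: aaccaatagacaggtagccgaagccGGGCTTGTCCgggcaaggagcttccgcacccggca

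The windows of Plk2, Phlda3 and Sesn2 held no half-site and no CATG word. Bases outside the windows were not searched, so an empty window does not mean that a gene lacks a p53 site. That of Plk2, on the plus strand, is printed because Plk2 had the highest ratio of the members.
Plk2, chr13:110394794-110395093: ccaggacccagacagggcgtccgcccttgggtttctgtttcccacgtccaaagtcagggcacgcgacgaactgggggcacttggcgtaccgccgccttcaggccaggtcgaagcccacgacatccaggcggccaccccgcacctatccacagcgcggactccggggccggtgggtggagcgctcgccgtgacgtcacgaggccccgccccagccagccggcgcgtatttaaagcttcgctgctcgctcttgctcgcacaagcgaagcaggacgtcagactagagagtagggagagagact

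The 9 measured members were not shifted in a common direction between the lines. Plk2 was higher in Mle29c and Trp53inp1 lower, each by more than 2-fold, and the other 7 were within 2-fold, among them Cdkn1a and Mdm2. Of all 14780 measured genes, 8.46% passed 2-fold towards Mle29c and 7.25% towards Mlesico (15.7% in either direction), so 1 of 9 each way is near the background. The median log2 ratio over the members was -0.22, with 4 above 0 and 5 below, against 0.01 over all measured genes. By probe set, 2 of 21 were past 2-fold, against 24.4% of all probe sets with a single gene, while 12 were above 0 and 9 below. The 24.4% takes in probe sets of every level, whereas only 2 of the 21 were of the low level class explained below. Of all low-class probe sets with a single gene, 56.7% had a ratio at least as wide as 0.98.

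Ratios are of Mle29c over Mlesico, on a log scale whose base was taken as 2. In the deposited values every probe set is centred between the arrays, so the Mle29c and Mlesico values of a probe set are mirror images and the absolute level is lost. What remains of the level is in the rounding of the deposited numbers, which is coarser for brighter probe sets. It was read as a class, high for a mean log2 level of 8 or more, middle for 4 to 8 and low below 4. On the premise that such centring and rounding made the deposited numbers, a class read from the sum of both values is called firm. A class read from the rounding step alone is not, since a dimmer probe set can carry a coarse step by chance. A high class from the step therefore does not settle whether a probe set is high or middle, and some such probe sets will be low. Of the 21 member probe sets 15 were classed high, 4 middle and 2 low, with 9 read from the sum and 12 from the step. A gene was called measured with at least 1 probe set in the high or middle class, and its value is the median of those.

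**Figure D1:**
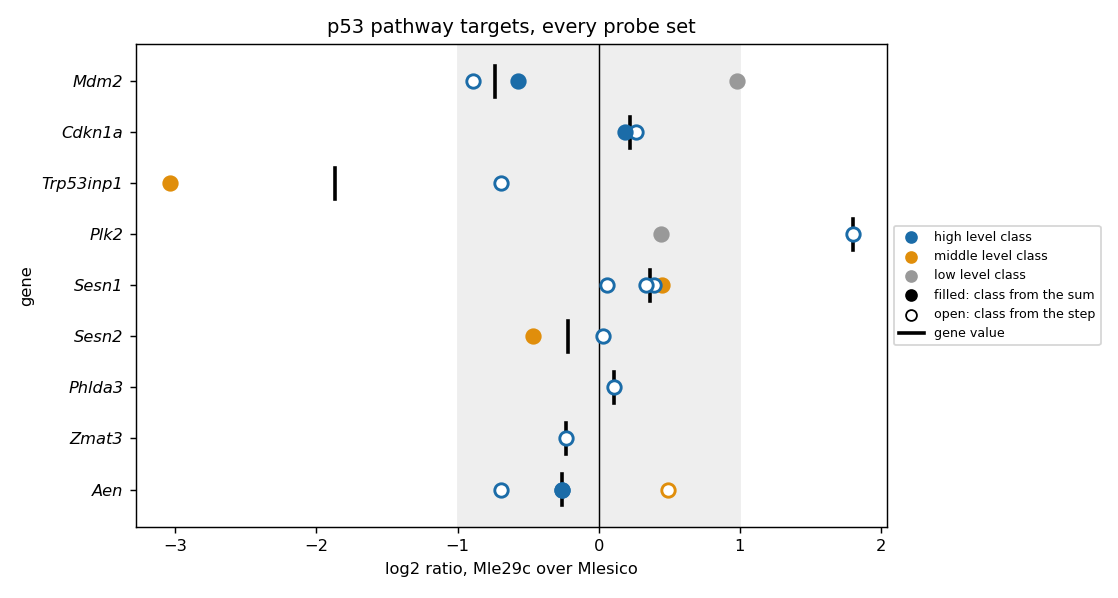
Log2 ratio of Mle29c over Mlesico (horizontal axis) for each of the 21 probe sets of the 9 measured members (rows), with 1 array per line. Colour gives the level class, filled points have a class read from the sum and open points one read from the step, black bars are gene values, and grey marks the range within 2-fold. Only the Trp53inp1 probe set at -3.04 and the Plk2 probe set at 1.80 lie outside the grey range.

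Mdm2, the ubiquitin ligase that degrades p53, stood at -0.73, a 1.66-fold lower value in Mle29c. Probe set 1427718_a_at had a centred value of -0.44 in Mle29c and 0.44 in Mlesico, a ratio of -0.89, and 1423605_a_at had -0.29 in Mle29c and 0.29 in Mlesico, a ratio of -0.57. The third, 1457929_at, was in the low class and stood at 0.98, on the other side of 0. Both Mdm2 probe sets that entered the gene value were lower in Mle29c, and the second has a firm high class. Among measured genes 11.5% had a ratio at least as low. The gene lies at chr10:117688875-117710758 (GRCm38.p6).

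Cdkn1a encodes p21, the inhibitor of cyclin-dependent kinases through which p53 halts the cell cycle. Probe set 1424638_at had 0.13 in Mle29c and -0.13 in Mlesico, and 1421679_a_at had 0.09 in Mle29c and -0.09 in Mlesico, which gave ratios of 0.26 and 0.19. Their median of 0.23 is a 1.17-fold higher value in Mle29c, and 34.0% of measured genes had a ratio at least as high. The probe sets differed by 0.07, a closer match than in 92.5% of the 6844 genes with 2 or more measured probe sets. Those genes were not matched for the number of probe sets, and the gap between the outermost ones tends to widen with that number. Probe set 1421679_a_at has a firm high class. The gene lies at chr17:29090979-29100722, and the annotation used here does not say which of its starts a probe set reads.

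Plk2, a polo-like kinase induced early after stress and needed for centriole duplication, had the highest ratio of the members. Probe set 1427005_at had 0.90 in Mle29c and -0.90 in Mlesico, a ratio of 1.80 or 3.49-fold. A ratio at least as high was found in 3.20% of measured genes. The other probe set, 1443780_at, was in the low class and stood at 0.44, with 0.22 in Mle29c and -0.22 in Mlesico. Both probe sets were higher in Mle29c, but the gene value rests on the first alone, whose high class was read from the step, and with both it was 1.12. The gene lies at chr13:110395044-110400844.

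Trp53inp1, a stress-induced nuclear protein that promotes p53-dependent apoptosis and autophagy, had the lowest ratio of the members at -1.87. Its probe sets were far apart. Probe set 1416927_at had -1.52 in Mle29c and 1.52 in Mlesico, a ratio of -3.04, whereas 1416926_at had -0.35 in Mle29c and 0.35 in Mlesico, a ratio of -0.69. Both were lower in Mle29c, by 8.21-fold and by 1.62-fold. A gap of 2.34 or more between measured probe sets was found in 4.88% of genes with 2 or more, where the median gap was 0.52. Those genes were not matched for the number of probe sets. The wide ratio came from a probe set with a firm middle class, which puts its log2 level between 2.48 and 6.48 in Mle29c and between 5.52 and 9.52 in Mlesico, so the Mle29c level may lie in the range of the low class. Among single-gene probe sets called middle, 2.86% had a ratio at least as wide. The gene lies at chr4:11156441-11174379.

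The sestrins are stress-induced proteins that restrain the growth kinase complex mTORC1. Sesn1 had 4 probe sets, all above 0, with 0.45 in 1444376_at, 0.39 in 1454699_at, 0.34 in 1438931_s_at and 0.06 in 1433711_s_at. Their median of 0.36 is 1.29-fold higher in Mle29c. The names of the last 2 probe sets end in _s_at, which marks probes that may match several transcripts. Sesn2 stood at -0.22, with its probe sets on either side of 0, at -0.46 in 1425139_at and 0.03 in 1451599_at. Neither gene was past 2-fold, and the gap between the Sesn2 probe sets, 0.49, was larger than the gene value. Sesn1 lies at chr10:41810574-41908436 and Sesn2 at chr4:132492804-132510456.

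Phlda3, which holds back the survival kinase Akt at the membrane, stood at 0.11 in 1 probe set (1449002_at), with 0.06 in Mle29c and -0.06 in Mlesico. Zmat3, a zinc finger protein that binds RNA, stood at -0.23 in 1 probe set (1449353_at), with -0.12 in Mle29c and 0.12 in Mlesico. Each was called high from the step. Aen, a nuclease that takes part in p53-induced apoptosis, stood at -0.26 over 4 probe sets. The firm high-class Aen probe sets 1450506_a_at and 1423957_at both stood at -0.26, with -0.69 in 1437373_at and 0.49 in 1451186_at, whose classes came from the step. These 3 genes lie at chr1:135766085-135769134, chr3:32334792-32365665 and chr7:78895927-78911209, in the order in which they are described.

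As a technical error, the SD between probe sets of a gene, pooled over 6844 genes, was 0.62 in log2 ratio. It leaves out differences between cultures. Plk2 and Trp53inp1 stood 2.91 and 3.01 such SDs from 0 and Mdm2 1.18, while the other 6 were within 0.59. The pooled SD is not the error of any single gene. Between its own 2 probe sets Trp53inp1 had an SD of 1.66, and Plk2, with 1 measured probe set, has none. Of the 7 members with 2 or more probe sets, Cdkn1a, Plk2, Sesn1 and Trp53inp1 had no probe sets of opposite sign, whereas Mdm2, Sesn2 and Aen had probe sets on either side of 0. Set against the median of their chromosomes, which lay between -0.08 and 0.03 for the chromosomes of these genes, Trp53inp1 was at -1.80 and Plk2 at 1.88.

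**Figure D2:**
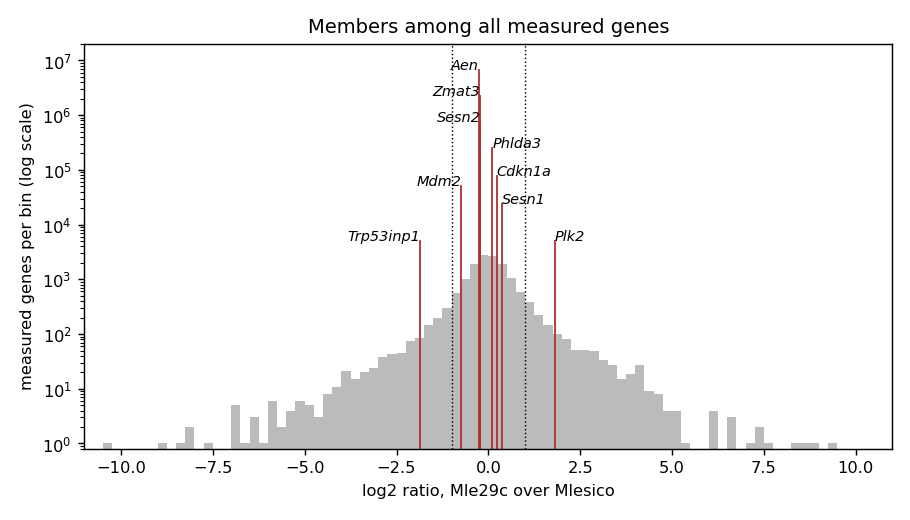
Number of measured genes per bin of 0.25 in log2 ratio (grey bars, log scale), with a red line at the gene value of each of the 9 measured members and dotted lines at 2-fold. Plk2 at 1.80 and Trp53inp1 at -1.87 lie outside the dotted lines, and the other 7 lie between -0.73 and 0.36.

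Other genes of the pathway were described by lists. Of 67 measured genes in 6 lists, 3 passed 2-fold towards Mle29c and 4 towards Mlesico; the median was -0.01, and 33 were above 0. Other targets of p53, in 3 of these lists, included 31 measured genes, of which none passed 2-fold towards Mle29c and 3 did towards Mlesico; their median was 0.24, and 19 were above 0. Without replicates these counts carry no test. The background shares past 2-fold are those given for the members, and 50.3% of all measured genes were above 0.

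Targets that act on the cell cycle had all 7 measured genes within 2-fold (median 0.24). Ptprv, a tyrosine phosphatase gene, was the highest at 0.77, and Ccng1, the cyclin G1 gene, the lowest at -0.80, with its 3 probe sets between -0.82 and -0.32. Targets that act in apoptosis had 1 of 11 measured genes lower and none higher (median -0.19). It was Fas, which encodes a death receptor, at -1.11 from 1 probe set, whose high class was read from the step. Bbc3, which encodes the apoptosis inducer Puma, stood at 0.27. Bax has no probe set paired with it in the annotation used here and was not analysed here. Pmaip1, which encodes the apoptosis inducer Noxa, was in the low class alone and so was not counted. Its probe set stood at -5.88, with the low class read from the step, and it is named after its value was seen. Other low-class probe sets of p53 targets did not share that value. That of Sfn stood at -0.58, and 1 of Rrm2b, from the next list, stood at 4.57 on the other side of 0. None of these low-class values entered a gene value.

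Targets of repair, metabolism and autophagy had 2 of 13 measured genes lower and none higher, while 10 of 13 were above 0 (median 0.38). Thbs1, which encodes the matrix protein thrombospondin 1, stood at -1.25, with probe sets at -1.72 and -0.78. Ercc5, an endonuclease of nucleotide excision repair, stood at -1.06, with probe sets at -1.64 and -0.48. In each of these genes 1 of 2 probe sets was past 2-fold, and the firm high-class one was the narrower. The wider one had a firm middle class in Ercc5 and a high class read from the step in Thbs1.

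Regulators of p53 had 1 of 21 measured genes higher and 1 lower (median -0.14). These were the related genes Ppp1r13b and Trp53bp2, whose products ASPP1 and ASPP2 steer p53 towards apoptosis genes. Ppp1r13b stood at 1.05 in 1 probe set, whose high class was read from the step. Trp53bp2 stood at -1.10, with probe sets at -1.22, of a firm high class, and at -0.98, high from the step. Mdm4, the partner of Mdm2 that blocks p53, stood at 0.08 over 3 measured probe sets, and Cdkn2a, the locus of the Mdm2 inhibitor Arf, at -0.50 in 1 probe set. The annotation used here does not say whether the Cdkn2a probe set reads the Arf transcript. The 3 genes through which miR-29 has been reported to act on p53 were within 2-fold, as were 84.3% of all measured genes. Pik3r1 stood at -0.08, Ppm1d at -0.07 and Cdc42 at 0.01, and each had probe sets on either side of 0.

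Paralogs of the members had 2 of 13 measured genes at least 2-fold higher and none lower (median 0.04). Sesn3, the third sestrin gene, stood at 1.52, with its probe sets at 1.53 and 1.51, both with firm classes, beside 0.36 for Sesn1 and -0.22 for Sesn2. Trp53inp2, an autophagy protein, stood at 1.25, with probe sets at 1.55 and 0.96, both high from the step, beside -1.87 for Trp53inp1. The polo-like kinase genes Plk1, Plk3 and Plk4 stood at -0.08, -0.24 and -0.15, beside 1.80 for Plk2. Of the p53 relatives, Trp63 stood at 0.67 and Trp73 at 0.04, each from 1 middle-class probe set. Both values depended on which probe sets were kept, since with every probe set Trp63 was at -0.02 and Trp73 at -1.17.

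**Figure D3:**
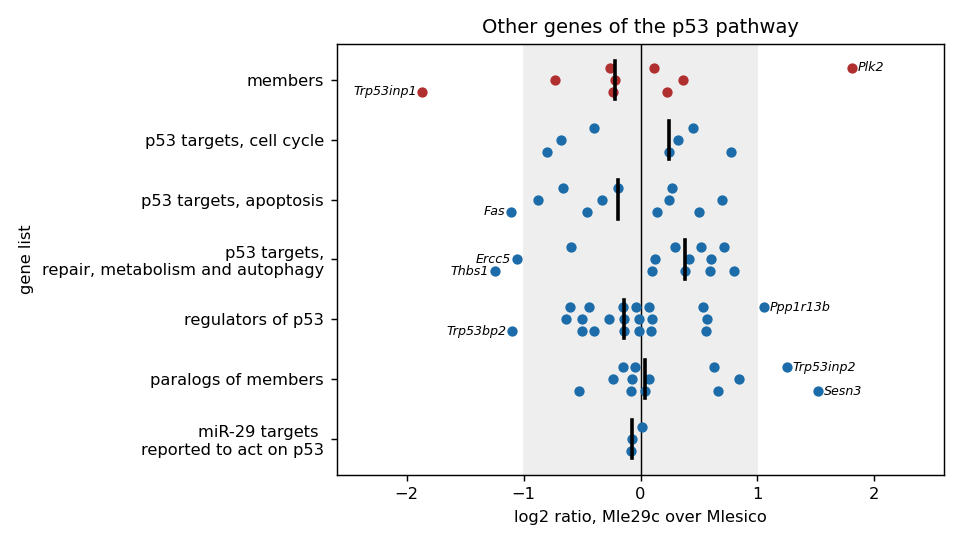
Log2 ratio of Mle29c over Mlesico (horizontal axis) for measured genes of each list (rows), members in red and the other lists in blue, with black bars at list medians and the range within 2-fold in grey. Vertical offsets within a row only separate points. Genes past 2-fold are named, and among the other p53 targets these 3 (Fas, Ercc5 and Thbs1) lie on the left.

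Markers of the labelled cell type and of others were read as level classes and as ratios, and the classes did not set the labelled type apart. At least 1 probe set was in the high or middle class for 6 of 7 epithelial, 3 of 4 immune, 2 of 4 endothelial and 4 of 5 fibroblast markers. A firm high class was found for the keratin gene Krt8 among epithelial markers and for Dcn among fibroblast markers. The epithelial markers Epcam, Cdh1, Krt18 and Cldn7 were in the middle class, Krt19 was high from the step, and Cldn4 was in the low class. The other markers in the low class alone were Ptprc (immune), Pecam1 and Tie1 (endothelial) and Pdgfrb (fibroblast). By ratio, 1 of 6 measured epithelial markers was at least 2-fold higher in Mle29c, Cdh1 at 1.46, and the other 5 lay between -0.52 and 0.63. Of 4 measured fibroblast markers 1 was at least 2-fold lower, Col1a1 at -3.41, with Col1a2 at 0.09, Pdgfra at 0.05 and Dcn at -0.32. No measured immune or endothelial marker was past 2-fold. The part of these markers in the results was not tested.

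Counts past 2-fold were also taken under other choices. With every probe set kept, 2 of 9 members were past it (all genes 23.3%), and in the high class alone 1 of 9 (all genes 11.7%). With the class from the sum alone, 1 of the 6 members left was past it (all genes 12.9%). At 1.5-fold 3 of 9 members were past the threshold (all genes 32%), as were 3 of 9 at 2-fold if the deposited log is natural (all genes 26.1%), with Mdm2 the third gene in both. At 4-fold 0 of 9 were (all genes 5%).

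**Figure D4:**
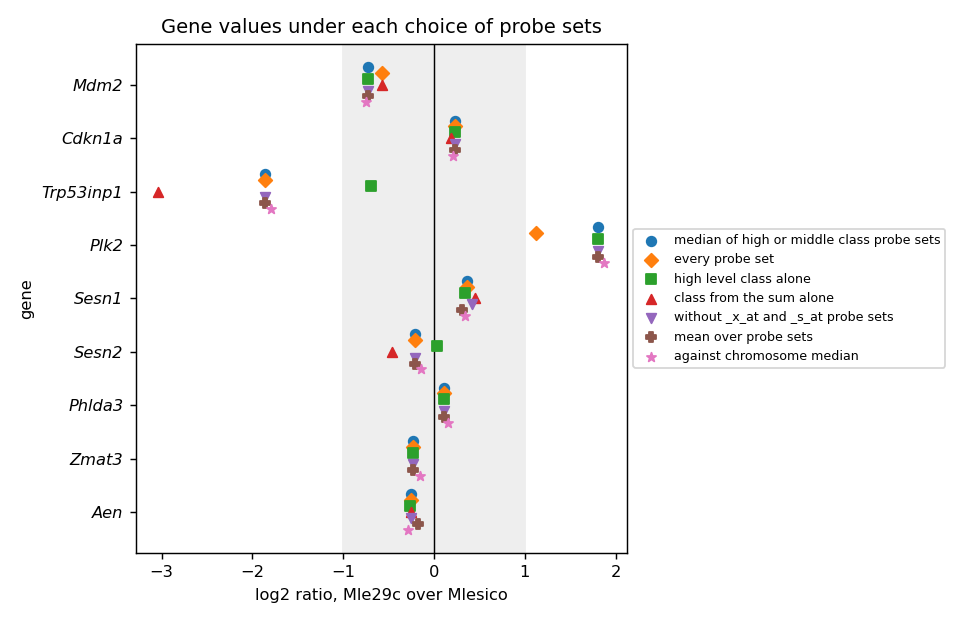
Gene value of each of the 9 measured members as log2 ratio of Mle29c over Mlesico (horizontal axis) under 7 choices of probe sets, summary or centring (symbols), with the range within 2-fold in grey. Trp53inp1 moves between -3.04 and -0.69 and Plk2 between 1.12 and 1.88, while the symbols of the other 7 genes stay in the grey range.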

How the data were processed

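One oligonucleotide array of total RNA was analysed per line. The deposited log2 values come from signals for which MAS5 is named, per the submitters' processing notes; its version and the log base are not given in the sources used here, and base 2 is an assumption. The 2 values of each probe set sum to 0 within 1e-06. Of 45101 probe sets, 34945 list a single gene, 932 several and 9160 none, besides 64 controls. Gene numbers led to current symbols in a GRCm38.p6 gene table, which held 34737 of the 34945. The reading of the level class was tried on simulated data, where classes from the step were wrong far more often than classes from the sum, and high classes from the step most often. The simulation used the centring and rounding that the reading presumes, with levels and ratios set from the sum classes. It therefore cannot show that the classes of the deposited values are right. Python 3.11.15, numpy 2.4.6 and pandas 2.3.3 were used. Only probe sets that list a single gene entered the gene values and shares, with no filter beyond this and the level class. No column of values was left unused, and the number of arrays limits the precision.

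The members, the lists and the rule for names were chosen with earlier results of these data known. The rule names all members, up to 4 genes per direction past 2-fold in each list (otherwise its highest and lowest) and 10 preset genes. The polo-like kinase paralogs, the low-class values of Pmaip1, Sfn and Rrm2b, and the markers are named outside it. Alternatives changed the probe sets, the summary, the fold, the log base and the centring.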

Additional observations from a re-analysis of the deposited data

How the results depend on the processing

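No paired analysis was possible because each line has 1 array. Over 6 alternatives to the gene values, those of Trp53inp1 and Plk2 moved by more than the pooled SD between probe sets. Trp53inp1 was at -0.69 over high-class probe sets and at -3.04 with the class from the sum, a setting chosen after the data were seen; Plk2 was at 1.12 with every probe set. Each of these settings changes which probe sets enter. Of 9 members, 2 were past 2-fold with every probe set. In the high class alone 1 was, with 0 lower. With the class from the sum alone, 6 members were left, with 1 past 2-fold, 0 higher, and 2 above 0. At 1.5-fold, and likewise at 2-fold if the log is natural, Mdm2 joined Trp53inp1, which made 2 lower. At 4-fold 0 were past the threshold in either direction. The member median was -0.22 with every probe set, 0.03 in the high class, -0.15 against chromosome medians, -0.36 with the class from the sum and 0.06 over probe sets. With every probe set, the median of cell cycle targets was -0.08, of regulators -0.02 and of paralogs -0.06.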
